A study of Caenorhabditis elegans with 2 samples.

Results

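The genes described here are the splicing and RNA processing genes of the nematode Caenorhabditis elegans whose names begin with snr-, prp-, rsp-, sap-, sftb-, uaf- or rnp-. They were taken by name alone from the Ensembl annotation of build WBcel235, which has ce11 coordinates, and there were 44 of them among 19973 nuclear protein-coding genes. At each gene the quantity read was the highest summit lying between 1000 bp upstream and 200 bp downstream of the annotated start, called the promoter window below. GEI-17 on chromatin had been mapped by ChIP-seq, the sequencing of DNA fragments that precipitate with a protein. GEI-17 is a PIAS-type E3 ligase, an enzyme that attaches the small protein SUMO to other proteins.

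There was 1 group, with 2 biological replicates numbered 4 and 5. Both were whole young adults of strain OP572, 64 h old and of mixed sex, synchronised by bleaching and starvation as L1 larvae. The strain carries unc-119(tm4063) and the integrated transgene wgIs572, which holds gei-17 fused to TY1, EGFP and 3xFLAG tags together with unc-119(+); precipitation used an antibody to GFP. The labels do not say which cells produce the tagged protein. Whole worms were used, so a region in a few cell types and a weak region in many cannot be told apart. Worms without the tag were not analysed here, so at every gene below, GEI-17 cannot be told apart from other sources of signal.

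The files held 30000 candidate summits for each replicate, 30000 for the pooled replicates, and 1030 of the pooled summits that passed the irreproducible discovery rate (IDR) filter, a filter on agreement between replicates. Those 1030 were also the highest of the pooled list by signal, so a gene that passed IDR is a gene with a high pooled rank. The pooled list of 30000 was deposited as peaks and background together, as input for IDR. A pooled candidate that did not pass may therefore be background. The signal of a summit is a number the authors deposited from peak calling, with no stated scale, so sizes are compared within a list and between lists by rank, where rank 1 is the highest signal. The lowest summit that passed IDR had a pooled signal of 110.4, and the lowest pooled candidate 20.3. No read depth was used here, so the precision of a single signal is unknown. The gene of the tagged protein, gei-17, had no candidate in its window or body in any list, and unc-119 had 1, in replicate 4, at a signal of 24.5 (rank 9032).

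The spliceosome removes introns from pre-mRNA. Its small nuclear ribonucleoproteins (snRNPs) each hold a small nuclear RNA (snRNA), and most are built on a ring of Sm proteins. U1 and U2 snRNPs and the U2AF dimer recognise the ends of the intron, the U4/U6 and U5 snRNPs join as a tri-snRNP, and SR proteins, which carry arginine-serine repeats, help to choose splice sites. In worms the machinery also joins a spliced leader to the start of many mRNAs. In many species splicing factors are targets of SUMO, but a region near a gene says nothing on its own about the protein that the gene encodes. The rnp- prefix also takes RNA recognition motif (RRM) proteins for which the RefSeq products name no step of splicing.

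Of the 44 genes, 30 had a pooled candidate in the promoter window (68.2%, exact Clopper-Pearson 95% interval 52.4–81.4), against 30.9% of all nuclear protein-coding genes. Of those 30 genes, 5 had a summit that passed IDR (16.7%, 5.64–34.7), against 9.68% of all genes with a candidate. The interval of the second share held its background, and no interval is used here as a test of the list. Counted over all 44 genes the share that passed was 11.4% (3.79–24.6), with a background of 2.99%. The intervals cover counting error only, and neighbouring genes that share a summit are not independent. The counts by role below are small. They stand beside the same shares of all genes, 30.9% with a candidate and, of those, 9.68% that passed IDR. No test of the gene list against other genes was made, because the list was chosen with results of these data known.

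**Figure D1:**
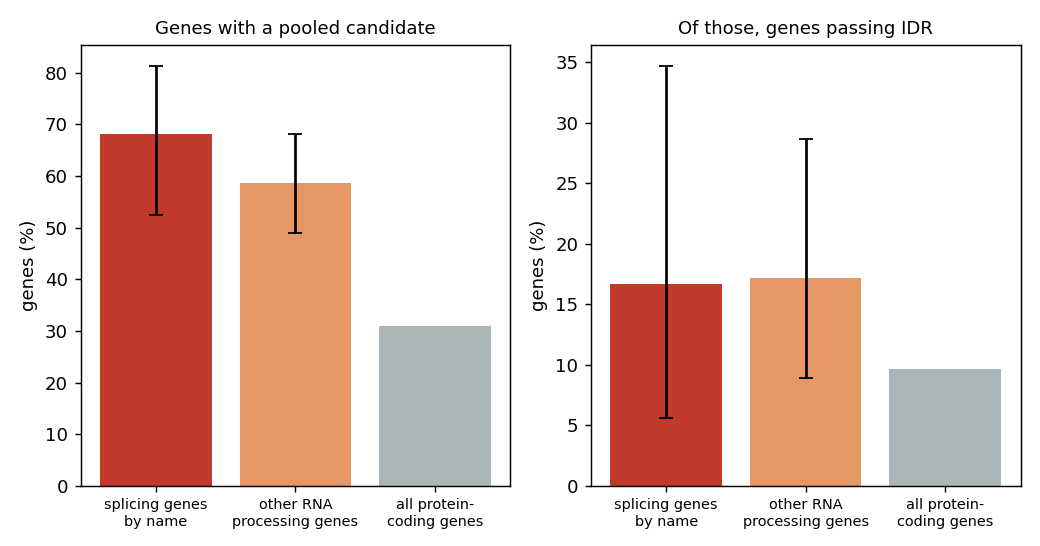
Bars show the percentage of genes with a pooled candidate in the promoter window (left) and the percentage of those genes that passed IDR (right), for the 44 splicing genes, for 109 other RNA processing genes and for all nuclear protein-coding genes; error bars are exact 95% intervals for counting error. The left bars stand at 68.2%, 58.7% and 30.9%, and the right bars at 16.7%, 17.2% and 9.68%.

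The 5 genes that passed IDR were snr-4, rsp-1, rsp-2, prp-40 and rnp-6. Their highest summits stood at 4 regions because rsp-1 and rsp-2 share a summit. snr-4 encodes the Sm protein D2, rsp-1 and rsp-2 encode SR proteins, prp-40 encodes a WW domain protein of the U1 snRNP, and rnp-6 encodes the homologue of PUF60, a poly(U)-binding partner of U2AF. Regions are given in ce11 coordinates. The snr-4 sequence is shown because a single stretch holds both of its summits and an snRNA gene. Those of the rsp-1 and rsp-2 promoter, of prp-40 and of sap-140, the highest gene below the IDR threshold, are shown because all 3 hold the same 8 letters beside the summit. All come from the RefSeq assembly of WBcel235 and are written 5′ to 3′ on the strand of the named gene. Capitals mark the annotated snRNA gene T11F9.15 at snr-4, and the letters ATGCGTCA on either strand at the others.
snr-4 (chrV:11980050-11980349, minus strand): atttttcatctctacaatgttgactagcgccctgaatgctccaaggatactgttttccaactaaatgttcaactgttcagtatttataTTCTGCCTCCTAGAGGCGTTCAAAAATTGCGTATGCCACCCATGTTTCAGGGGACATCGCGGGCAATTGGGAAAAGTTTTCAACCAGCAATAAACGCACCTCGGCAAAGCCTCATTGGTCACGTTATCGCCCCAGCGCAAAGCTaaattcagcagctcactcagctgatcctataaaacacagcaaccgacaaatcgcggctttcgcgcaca
rsp-1 and rsp-2 (chrII:11453131-11453281, plus strand): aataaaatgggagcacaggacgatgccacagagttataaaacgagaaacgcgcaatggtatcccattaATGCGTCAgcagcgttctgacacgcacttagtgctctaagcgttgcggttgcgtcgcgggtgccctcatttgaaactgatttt
prp-40 (chrIII:9521800-9521950, plus strand): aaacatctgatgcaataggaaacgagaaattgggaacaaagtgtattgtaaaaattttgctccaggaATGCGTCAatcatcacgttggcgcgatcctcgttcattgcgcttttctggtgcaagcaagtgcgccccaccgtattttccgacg
sap-140 (chrIII:7499625-7499735, plus strand): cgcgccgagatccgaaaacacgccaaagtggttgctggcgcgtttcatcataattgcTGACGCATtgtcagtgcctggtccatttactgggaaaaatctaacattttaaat

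The 8 letters were noticed in the rsp-1 and prp-40 sequences and counted afterwards, so they are a description. ATGCGTCA, on either strand, was centred −3.5 bp from the rsp-1 summit and −4.5 bp from the prp-40 summit, and its reverse complement −14.5 bp from the sap-140 summit. Within 50 bp of the highest summit it was present at 3 of the 28 distinct summits of the splicing genes. Of these 3, 2 are the summits where it was noticed. Among the 4 distinct summits that passed IDR it was present at 2. The snr-4 and rnp-6 summits lacked it, and the rnp-6 sequence is not shown. Over all genes with a candidate it was present at 32 of 5373 distinct summits (0.596%), and among the 470 of those that passed IDR at 13 (2.77%).

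Of 4 other motifs sought on either strand within the same distance, TATAAA, the letters of a TATA box, was present at 2 of the 28 distinct summits. That share was no higher than the 8.62% of all 5373 summits. The 2 were the shared rsp-1 and rsp-2 summit (centred −38.5 bp from it along rsp-1) and that of snr-4 (2.5 bp). The GAGA repeat GAGAGAGA (2.27% of all summits), the heat shock element TTCTAGAA (0.596%) and the E-box CACGTG (2.96%) were at none of the 28. A match, or the lack of one, describes the letters of that window only. The median GC content of the 101 bp around the summit was 44.6% for the splicing genes and 41.6% for all genes with a candidate.

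Among the 7 Sm core genes, snr-4 (V:11978508–11979723, minus strand) had the highest signal of all 44 genes. The pooled signal was 219.99 (rank 278, the 97.5th percentile of genes with a candidate), and the replicates gave 101.9 (rank 247 in replicate 4) and 122.5 (rank 311 in replicate 5). Both replicates thus placed it among their 1030 highest summits. The window held 2 summits that passed IDR, and they stood on either side of an snRNA gene. The higher lay at −367 bp from the snr-4 start (V:11979967–11980184), inside the unclassified non-coding RNA gene C52E4.14 and 28 bp from T11F9.15, annotated as an snRNA gene. Both non-coding genes run opposite to snr-4. The lower lay at −572 bp (V:11980073–11980516) with a pooled signal of 171.2 (rank 450). Replicate 5 listed summits near both places, at −366 bp and −571 bp. Replicate 4 listed none near the higher: its highest was at −579 bp, and its only other in the window was at −904 bp with a signal of 28.4. No other protein-coding gene had the higher summit in its window, the nearest upstream being rpt-1 on the same strand with a gap of 811 bp. Position cannot tell whether the region belongs to snr-4 or to the non-coding genes within it.

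The other Sm genes lay far lower. snr-1, which encodes Sm D3, had a pooled signal of 67.9 (rank 3057), with 29.4 in replicate 4 and 30.3 in replicate 5. snr-3 (Sm D1) had 49.7, with 20.8 and 23.9. snr-2 (Sm B, 26.1), snr-5 (Sm F, 43.9) and snr-6 (Sm E, 36.3) each had a candidate in replicate 5 but none in replicate 4. snr-7 (Sm G) had no pooled candidate, and was listed only in replicate 5, at 16.7. Of the 7 genes, 6 therefore had a pooled candidate, 3 had candidates in both replicates as well, and 1 passed IDR.

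**Figure D2:**
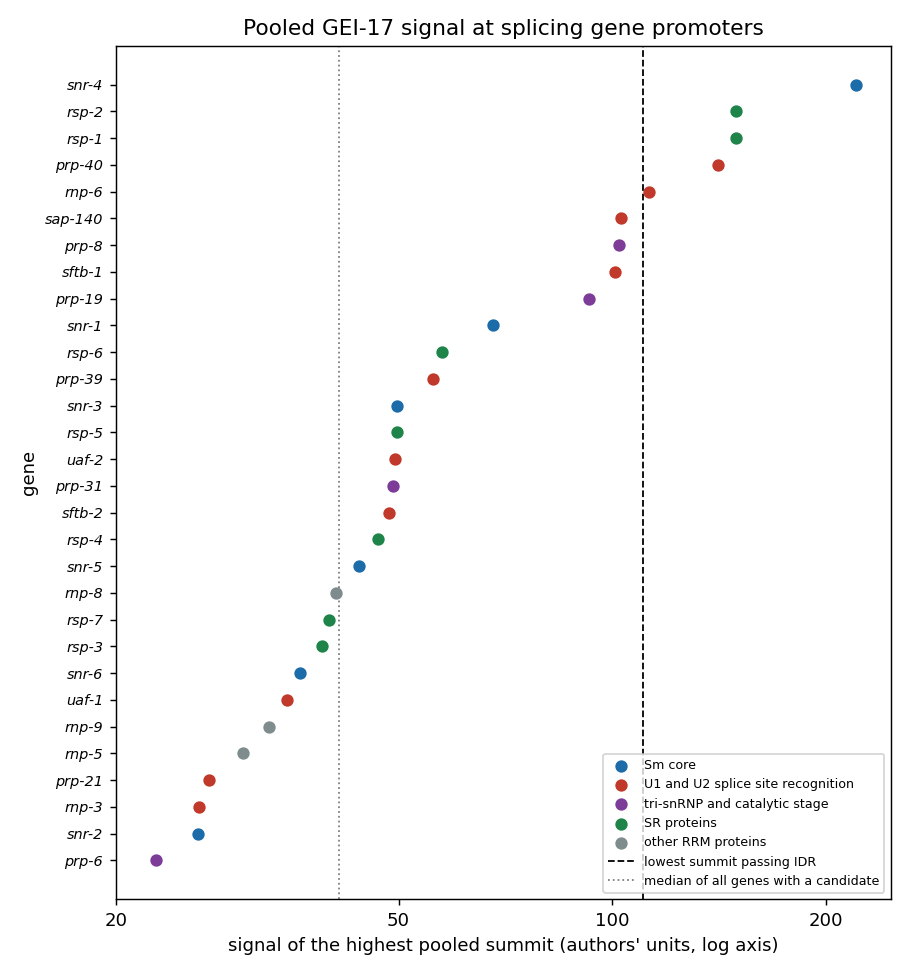
Each point is the signal of the highest pooled summit in the promoter window of 1 of the 30 splicing genes with a candidate, on a log axis in the authors' units and coloured by role; the dashed line is the lowest summit that passed IDR (110.4) and the dotted line the median of all genes with a candidate (41.2). snr-4 stands apart at 219.99, and sap-140, prp-8, sftb-1 and prp-19 lie just left of the dashed line.

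Among the 8 SR protein genes the head-to-head pair rsp-1 and rsp-2 led. Their starts lie 407 bp apart on chromosome II, with rsp-1 on the plus strand (II:11453362–11455864) and rsp-2 on the minus strand (II:11451441–11452955). The 1 summit between them (II:11452984–11453427) was at −156 bp from rsp-1 and −251 bp from rsp-2. The pooled signal was 149.5 (rank 585), and the summit had 91.4 in replicate 4 (rank 305) and 66.7 in replicate 5 (rank 1107). Replicate 4 therefore placed it well inside its 1030 highest summits and replicate 5 just outside them. The replicate summits lay at −159 bp and −147 bp from rsp-1, next to the pooled one.

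A further SR gene, rsp-5, forms such a pair with the Sm gene snr-3, with starts 404 bp apart, but their shared summit was lower. The pooled signal was 49.7 (rank 6654), at −150 bp from rsp-5 and −254 bp from snr-3, with 20.8 in replicate 4 (rank 13414) and 23.9 in replicate 5 (rank 12946). rsp-7 shared its summit (39.9) with snu-13, which encodes a protein of the U4 snRNP, and with lact-3. rsp-6 had 57.6, at −943 bp and in a coding exon of its neighbour C33H5.13. In replicate 5 the highest rsp-6 summit was elsewhere, at −37 bp. rsp-4 had 46.8, in a coding exon of ndx-6, and rsp-3, which encodes the homologue of the human factor SRSF1, had 39.05 in its own coding sequence, 92 bp downstream of the start.

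rsp-8, a relative of Tra2, was the only SR gene without a pooled candidate in the promoter window, yet it was the only 1 of the 44 genes with a summit that passed IDR in the gene body beyond the window. That summit (III:11830639–11830788) lay 4275 bp downstream of the rsp-8 start, in coding sequence and 281 bp before the annotated end. The pooled signal was 155.4 (rank 547), with 76.2 in replicate 4 (rank 483) and 82.1 in replicate 5 (rank 692), so both replicates placed it among their 1030 highest. It lay in no promoter window and within 200 bp of no short non-coding gene. A summit that passed IDR in the body was present in 1.18% of all nuclear protein-coding genes, and a pooled candidate in the body in 25 of the 44 genes, against 35.8% of all. Bodies differ in length between genes, and no adjustment for it was made.

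Of the 15 genes for U1 and U2 proteins and U2AF, 10 had a pooled candidate and 2 passed IDR. prp-40 (III:9522075–9525454, plus strand) had a pooled signal of 140.8 (rank 648), with 62.5 in replicate 4 (rank 752) and 72.9 in replicate 5 (rank 898). It was above the 1030th summit in all 3 lists. The summit (III:9521653–9522096) was at −200 bp, between prp-40 and the head-to-head gene clu-1, which encodes a clustered mitochondria protein homologue and whose start was 415 bp away (at −415 bp in its own direction). rnp-6 (I:3539553–3546910, minus strand) had 112.7 (rank 994), just above the lowest that passed. In the replicates it had 46.4 (rank 1571) and 62.6 (rank 1277), below the 1030 highest of each. Its summit (I:3546826–3547269) was at −138 bp from rnp-6 but −23 bp from rde-10, an RNA interference gene that runs the other way.

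**Figure D3:**
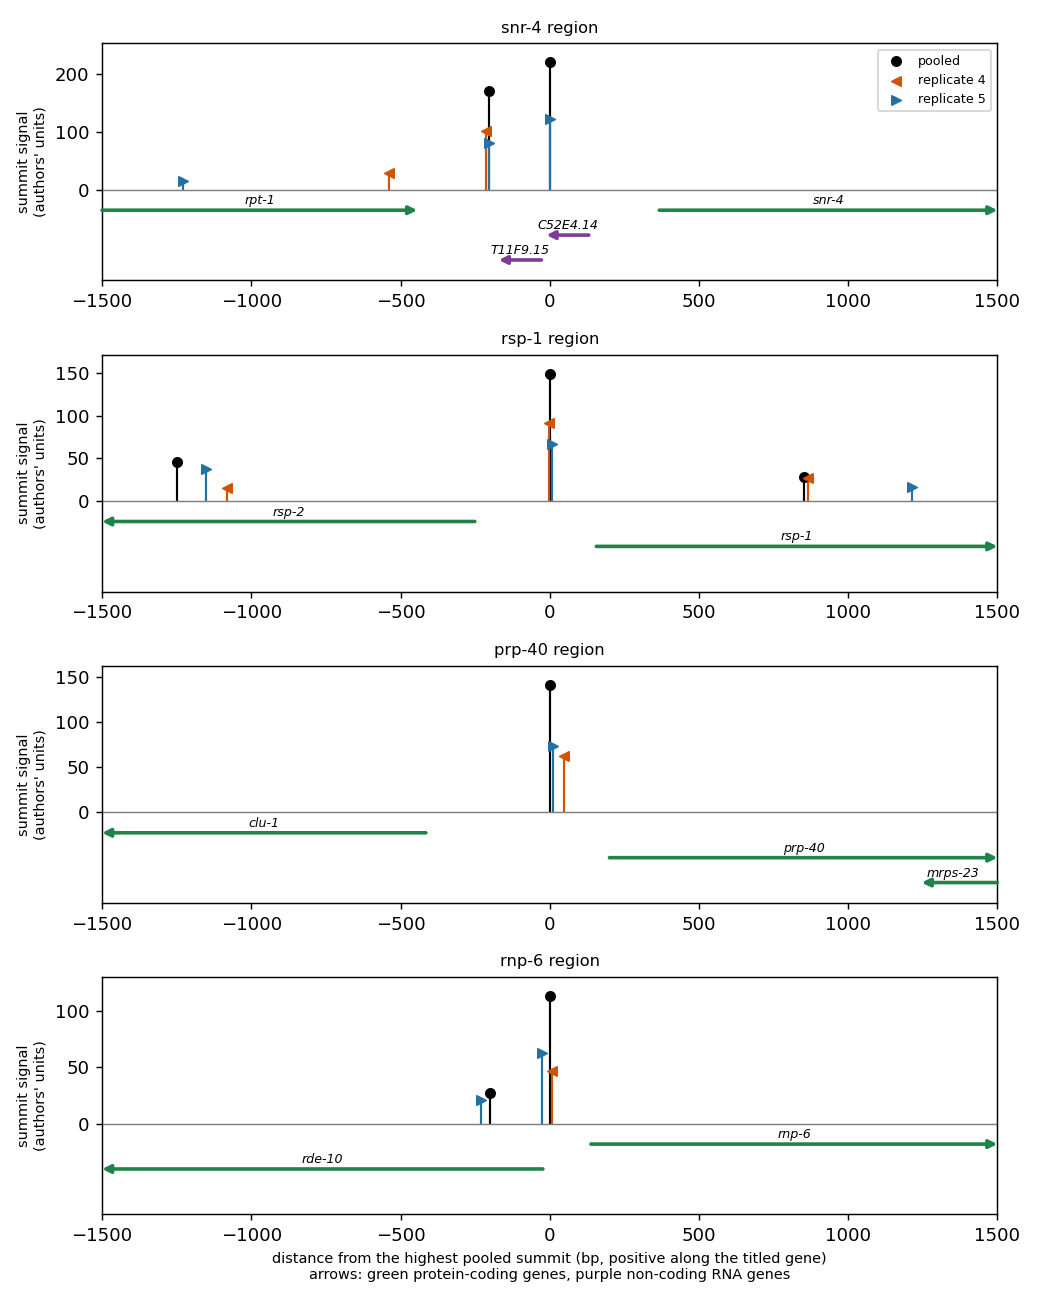
Summit signals (vertical, authors' units, whose scale may differ between lists) against distance in bp from the highest pooled summit, with arrows for annotated genes. The 4 panels show the distinct highest summits of the genes that passed IDR. The snr-4 panel holds 2 pooled summits on either side of T11F9.15, and the other 3 panels hold a single high summit between genes that run apart.

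Below the IDR threshold there was a group of 4 genes close to it, followed by a gap. sap-140, which encodes a U2 snRNP-associated SURP motif protein, had a pooled signal of 102.8 (rank 1218). Its replicate signals were 43.7 (rank 1835) and 70.6 (rank 977), so replicate 5 alone placed it in its top 1030. Its summit lay at −38 bp, also in the window of C07H6.9. prp-8, which encodes the large U5 protein at the core of the spliceosome, had 102.2 (rank 1230), with 44.9 in replicate 4 (rank 1723) and 42.2 in replicate 5 (rank 3471). Its summits in the 3 lists lay close together, at −303, −298 and −310 bp.

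sftb-1, which encodes the large SF3B subunit of the U2 snRNP, had a pooled signal of 100.9 (rank 1256). The replicates gave 55.7 (rank 979) and 59.0 (rank 1490), so here it was replicate 4 that placed the gene in its top 1030. The sftb-1 summit was at −464 bp, close to the start of R10E4.1 on the other strand. prp-19, which encodes a ubiquitin ligase of the active spliceosome, had 92.8 (rank 1526), with 40.3 (rank 2275) and 49.7 (rank 2289). Its summit was at −666 bp and also lay in the windows of K10D2.5 and emb-1. With the 5 genes that passed IDR, these made up the 9 of the 30 genes within the 2060 highest pooled summits. The next, snr-1, was at rank 3057. Over all nuclear protein-coding genes the number rose from 598 to 1070 between the same lists, so the rise from 5 to 9 is near that of all genes.

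The remaining U1, U2 and U2AF genes were lower. The pooled signals were 55.9 for prp-39 (U1 snRNP), 49.4 for uaf-2 (the small U2AF subunit), 48.5 for sftb-2 (SF3B), 34.8 for uaf-1 (the large U2AF subunit), 27.02 for prp-21 (SF3A) and 26.1 for rnp-3 (a U1 or U2 snRNP protein). sftb-2 was ranked far apart by the replicates, at 3108 and 24193, and prp-39 at 6007 and 22211. uaf-2 had no candidate in replicate 5, prp-21 had none in replicate 4, and rnp-3 had none in either. The rnp-3 summit lay at the end of its upstream neighbour rnp-2, 73 bp away on the same strand. rnp-2, rnp-7, prp-9, sap-49 and sftb-6 had no pooled candidate.

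Of the 9 genes of the tri-snRNP and the catalytic stage, 4 had a candidate and none passed IDR. That count is too small to be set apart from the 9.68% of all genes with a candidate. Beside prp-8 and prp-19 these were prp-31 (49.1), whose product holds the U4/U6 snRNP to U5, and prp-6 (22.8, the lowest of the 30). prp-3, prp-4, prp-17, prp-18 and prp-38 had none. Of the 5 other RRM genes, rnp-8 (40.8), rnp-9 (32.8) and rnp-5 (30.2) had a candidate, all below the median of 41.2 for genes with a candidate, while rnp-1 and rnp-4 had none.

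Over the 30 genes the signals ran from 22.8 to 219.99 with a median of 49.3, and 19 lay above that median of all genes with a candidate. The median percentile was 61.5. Of the 14 genes without a pooled candidate, 7 were in neither replicate list: prp-17, prp-18, prp-3, prp-4, prp-9, rnp-4 and sap-49. rnp-1 (21.8) and sftb-6 (17.8) were listed in replicate 4 only, and prp-38, rnp-2, rnp-7, rsp-8 and snr-7 in replicate 5 only, at signals from 13.1 to 24.0. Each list stops at 30000 summits. A gene without a candidate had none of the listed summits in its window, and is not shown to lack GEI-17.

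The replicates listed many of the same genes. Of the 30 genes, 21 had a candidate in both (70%, against 59.8% of all genes with a pooled candidate), 2 in replicate 4 alone, 6 in replicate 5 alone and 1, rnp-3, in neither. The 1030 highest summits of replicate 4 took 5 of the 44 genes (snr-4, rsp-1, rsp-2, prp-40 and sftb-1), and those of replicate 5 took 3 (snr-4, prp-40 and sap-140), each against 2.8% of all nuclear protein-coding genes. snr-4 and prp-40 were in both sets, whereas rnp-6, which passed IDR, was in neither. Over the 19 distinct summits with both replicates the ranks had a Spearman correlation of 0.784, against 0.558 over 3187 such summits of all genes; the points share the same 2 libraries, and the values are a description.

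**Figure D4:**
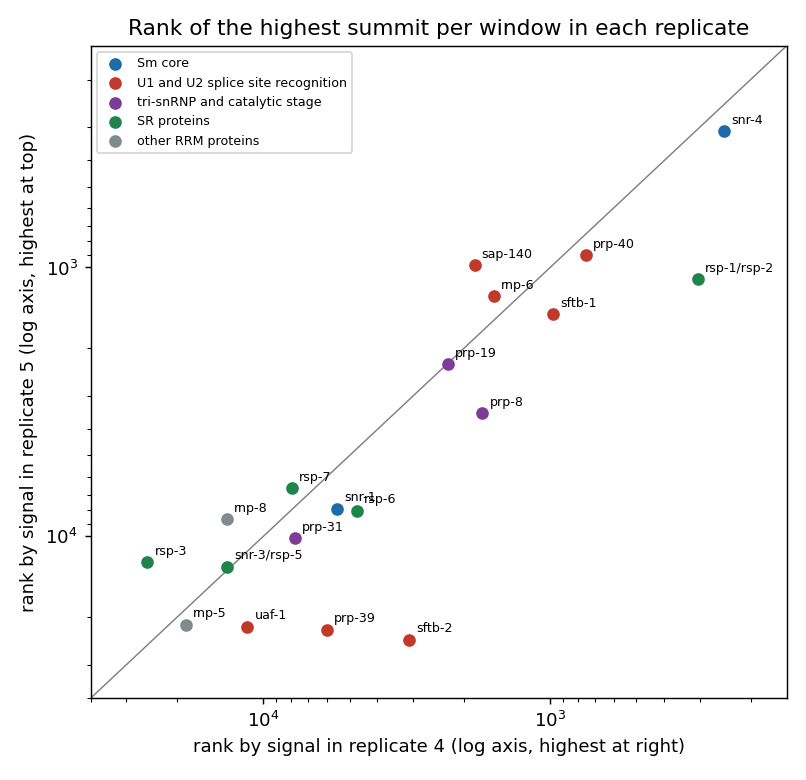
Rank by signal of the highest summit in the promoter window in replicate 4 (horizontal) and replicate 5 (vertical), on log axes with the highest rank at top right; each point is 1 of 19 distinct pooled summits, coloured by role (the snr-3 and rsp-5 point as SR), and the line marks equal ranks. Each replicate's own highest summit is ranked, so at 5 of the 19 points the ranks come from places over 200 bp apart. snr-4, at 247 and 311, is among those 5. sftb-2 and prp-39 fall furthest below the line.

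The summits lay mostly upstream, but so does most of the window, with 1000 bp upstream of the start and 200 bp downstream. For 27 of the 30 genes the highest pooled summit was upstream of the annotated start (90%, exact 95% interval 73.5–97.9). That interval held the 80.7% of all genes with a candidate. The median position was −267.5 bp, with a range of −943 to 196 bp. The 3 downstream were those of prp-21, rsp-3 and prp-39. Of the 30, 22 lay in intergenic sequence, 4 in coding exons, 2 in introns, 1 in a 3′ UTR and 1 in a non-coding RNA gene. The same split over all genes with a candidate is not given here, so these counts describe the 30 genes only. The highest summits of the replicates were a median of 93 bp apart, within 50 bp at 5 of 19 and over 200 bp apart at 5 of 19. The latter were snr-4, rsp-6, rnp-5, rsp-7 and uaf-1, so for those genes the replicate values are not readings of the same place.

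**Figure D5:**
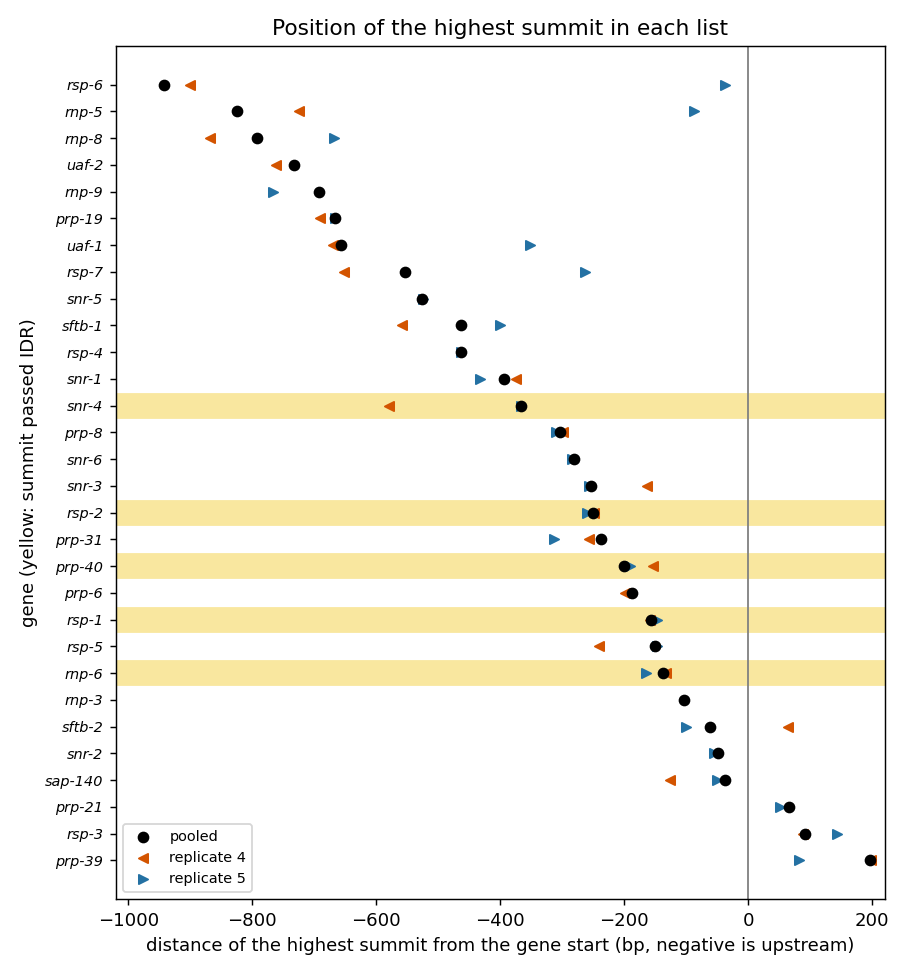
Distance in bp from the annotated start to the highest summit in the pooled list (circle), replicate 4 (left-pointing triangle) and replicate 5 (right-pointing triangle), for the 30 genes with a pooled candidate; yellow rows passed IDR. Pooled summits run from −943 bp (rsp-6) to 196 bp (prp-39), and at snr-4 the replicate 4 summit stands apart at −579 bp.

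Many of the splicing genes have a neighbour that runs away from them. The nearest upstream protein-coding gene lay within 1000 bp on the opposite strand for 27 of the 44 (61.4%, against 17.2% of all nuclear protein-coding genes). These head-to-head genes had a candidate in 20 of 27 cases, against 38.5% of all head-to-head genes, and 4 of the 20 passed IDR, against 14.5%. With an upstream neighbour on the same strand within 1000 bp the count was 4 of 9, against 33.1%, and with no gene within 1000 bp 5 of 6, against 26.4%. Of 2 genes that start inside another gene 1 had a candidate, rsp-4, against 34.4%. All 5 same-strand genes without a candidate (prp-3, prp-38, rnp-4, rnp-7 and sap-49) lay within 345 bp of that neighbour, but so did prp-39 and rnp-3, which had a candidate. In worms such close genes are often transcribed together as an operon, for which no annotation was used here.

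The highest pooled summit lay in the window of another protein-coding gene as well for 21 of the 30 genes, against 26.9% of all genes with a candidate. The same held for 4 of the 5 that passed IDR, against 42% of all that passed. Of the 30 genes, 20 were head-to-head genes, against 1322 of the 6175 genes with a candidate. Sharing was not counted apart from that arrangement. Only snr-4 of the 5 did not share its summit with a protein-coding gene, and with a window of 2000 bp upstream to 500 bp downstream all 6 genes that then passed shared theirs, snr-4 included. It was also the only 1 of the 5 with a short non-coding gene within 200 bp, a state found at 23.9% of all genes that passed. A shared summit cannot be assigned to either gene by position, and the start of rde-10 lay nearer to its summit than that of rnp-6, while the start of clu-1 lay further away than that of prp-40. By chromosome, III held 14 of the 44 genes and 10 of the 30 with a candidate. The share of all genes on III is not given here, so these counts have no background. X held 1 gene, rnp-9 (2.27%, against 13.7% of all nuclear protein-coding genes).

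The pathway was also read through other RNA processing genes, from 121 names set by hand. Matching was by symbol alone, which can take in genes of another function, and gave 109 genes. Of these, 64 had a pooled candidate (58.7%, exact 95% interval 48.9–68.1) against 30.9% of all nuclear protein-coding genes, and 11 of the 64 passed IDR (17.2%, 8.90–28.7), an interval that held the 9.68% of all genes with a candidate. The counts by role below are small and stand beside the same shares. All 11 had a candidate in both replicates, and 10 summits were upstream of the start, where most of the window lies.

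Among 39 spliceosome genes with other names 20 had a candidate and 7 passed IDR. mog-4, an RNA helicase gene, had a pooled signal of 197.2, with 91.2 and 110.2 in the replicates. smu-1 (158.6), spk-1, which encodes a kinase of SR proteins (156.0), usp-39 (143.2), syf-2 (128.3), ddx-23 (117.7) and snrp-40.1 (117.3) followed. syf-2 lies just upstream of rnp-7 on the same strand, with a gap of 5 bp, and rnp-7 itself had no pooled candidate.

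Of 27 alternative splicing regulators 18 had a candidate and 3 passed IDR, among them hrpr-1 (120.4) and hrpu-1 (114.8). Of 8 LSM genes, which encode relatives of the Sm proteins, 6 had a candidate and lsm-6 (111.1) passed. Of 22 genes for cap binding, cleavage and polyadenylation 13 had a candidate and none passed, a count too small to be set apart from the 9.68% of all genes with a candidate. The group set by hand under the exon junction complex was not limited to subunits of that complex, and had 3 of 7 with a candidate. Trans-splicing had 2 of 4 and snRNP assembly 2 of 2, and no gene of these 3 groups passed.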

How the data were processed

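Per the deposited file listings, the authors called candidate regions for replicate 4, replicate 5 and the pooled replicates against a control alignment, and derived the IDR list from these. Neither the peak caller nor the IDR threshold is given in the sources used here. Per the labels, the build is ce11. The signal of each summit was used as the authors deposited it. The deposited −log10 q values were not used. Genes came from Ensembl release 115 (WBcel235) and sequence from RefSeq; both share the ce11 coordinates.

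For each gene the highest summit in the promoter window was taken in each list, with counts beside the same share over all genes. Short non-coding genes (tRNA, snoRNA, snRNA, miRNA, rRNA, ncRNA) were sought within 200 bp of summits. Percentiles count genes with a lower highest signal. There was 1 group, so no conditions were compared and no test was run. Members and lists were chosen with earlier results of these data known; the role groups, the arrangement of neighbours, summit sharing below the IDR threshold, gene bodies and the word ATGCGTCA were chosen after the values were seen. Named genes were all members, the listed pathway genes that passed IDR except 1, which is not reported here, gei-17, unc-119 and genes sharing summits that passed; other neighbours were named after values were seen. Window counting was tested on planted summits. The software was matplotlib 3.10.9, scipy 1.17.1, pandas 2.3.3, numpy 2.4.6 and Python 3.11.15.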

Additional observations from a re-analysis of the deposited data

How the results depend on the processing

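No paired analysis was possible because there was 1 group. Of 39 alternative values, 12 moved, and 27 did not by a wide limit: these include 22 (narrower window) and 32 (wider window) genes with a pooled candidate in place of 30, 14 and 28 genes with candidates in both replicates in place of 21, and 6 shared summits (wider window) in place of 4. The count of splicing genes that passed IDR was 5; it was 9 among the 2060 highest pooled summits (the looser threshold, which added prp-8, prp-19, sap-140 and sftb-1), 1 among the 515 highest (the stricter threshold, snr-4) and between 3 and 5 when the pooled list was replaced by the 1030 highest summits of 1 replicate: 3 without replicate 4 and 5 without replicate 5. Over all 19973 genes the looser threshold took 1070 and the stricter 313, against 598. Of those that passed, 4 shared a summit with another gene; this was 8 with the looser and 0 with the stricter threshold. The other RNA processing genes that passed numbered 11, and 19 with the looser and 2 with the stricter threshold, 10 without replicate 4 and 7 without replicate 5. The median position was −267.5 bp, −194 bp with the narrower window, −380.5 bp with the wider window, −262 bp without replicate 4 and −257 bp without replicate 5. The wider window (2000 bp upstream to 500 bp downstream) added rnp-7 to the genes that passed. The read depth behind each summit was not used here.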
